A study of Mus musculus with 12 samples.

Results

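A set of 8 keratin and mesothelial genes, *Krt7*, *Krt8*, *Krt18*, *Krt19*, *Msln*, *Upk1b*, *Upk3b* and *Aldh1a2*, was followed across RNA-Seq libraries of mouse cardiac fibroblasts. They were found by symbol among the 35275 genes of the deposited table, each with 1 row. The set was chosen by its levels in Smad7-KO and control cells, with the near loss of *Krt18* already known. Levels in Smad7-KO against control cells are therefore given as a description without a test, and only the responses to TGF-β1, which the choice did not use, were tested. Fibroblasts came from the hearts of 12-week-old C57BL/6 mice with a floxed *Smad7* gene and were used at passage 2. All cells, controls included, carried the floxed allele and were infected for 48 hours with an adenovirus at a multiplicity of infection of 100. The titles of the control samples nevertheless call these cells wild type, and the paper uses both names for its control fibroblasts. The virus given to Smad7-KO cells carried Cre recombinase, and that given to control cells was one that the labels describe as expressing GFP and the study's methods as empty. Both genotypes were sequenced unstimulated and after TGF-β1, which makes 4 groups of 3 libraries. TGF-β1 was given at 10 ng/ml, for 2 hours by one label field and for 4 hours by another. The series describes the libraries of a group as independent without saying whether they came from separate animals or cultures, so p values measure only the spread between these libraries. Because Cre came by adenovirus rather than from a cell type-specific promoter, every cell that the virus entered could recombine.

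Keratins are the intermediate filaments of epithelia, built from obligate pairs of an acidic type I protein (Krt18, Krt19) and a basic type II protein (Krt7, Krt8). Krt8 and Krt18 form the classic pair of simple epithelia, and Krt7 and Krt19 join them in ducts and in mesothelium. The mesothelium is a flat epithelium of mesodermal origin that lines the body cavities, and its layer on the heart is the epicardium, which in development gives rise to many cardiac fibroblasts. Mesothelin (Msln) is a surface protein of mesothelial cells. The uroplakins Upk1b, a tetraspanin, and Upk3b, a single-pass membrane protein, are best known from the urothelium, but both are also made by mesothelium. Aldh1a2 (Raldh2) oxidizes retinaldehyde to retinoic acid and is a marker of the epicardium.

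In the coordinates of the deposited table, taken as GRCm38, *Krt7* lies on chromosome 15 from 101411043 to 101430313, *Krt8* from 101996711 to 102004342 and *Krt18* from 102028216 to 102032026. *Krt8* and *Krt18* are thus neighbors on opposite strands, 23.9 kb apart, and *Krt18* is the type I gene that sits beside the type II genes. *Krt19* lies on chromosome 11 (100140810 to 100148665), *Msln* on chromosome 17 (25748614 to 25754327), *Upk1b* on chromosome 16 (38773184 to 38800203), *Upk3b* on chromosome 5 (136038496 to 136045303) and *Aldh1a2* on chromosome 9 (71215789 to 71296243). Promoter sequences from RefSeq (GRCm38.p6), 250 bases before to 50 bases after the start site, were matched for 5 of the 8 genes. Those of *Krt18*, the gene that was nearly lost, of *Krt8*, its partner gene, and of *Aldh1a2*, the gene that went the other way, are printed 5′ to 3′ on the strand of the gene, with the motifs CACCTG (the E-box read by repressors of epithelial genes such as Snai1 and Zeb1) and TATAAA in capitals where they match on either strand.

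Krt18, chr15:102027966-102028265, + strand: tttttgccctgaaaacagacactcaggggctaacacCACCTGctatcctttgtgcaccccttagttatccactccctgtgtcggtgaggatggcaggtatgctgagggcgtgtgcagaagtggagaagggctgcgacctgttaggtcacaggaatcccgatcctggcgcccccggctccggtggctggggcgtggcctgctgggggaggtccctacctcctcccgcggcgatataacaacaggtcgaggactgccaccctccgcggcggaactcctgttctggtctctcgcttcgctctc
Krt8, chr15:102004293-102004592, - strand: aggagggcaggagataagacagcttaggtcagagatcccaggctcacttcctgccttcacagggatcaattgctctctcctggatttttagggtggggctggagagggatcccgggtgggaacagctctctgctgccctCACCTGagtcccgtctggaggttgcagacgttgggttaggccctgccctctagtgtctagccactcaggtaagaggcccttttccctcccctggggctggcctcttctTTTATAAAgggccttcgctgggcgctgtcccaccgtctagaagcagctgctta
Aldh1a2, chr9:71215539-71215838, + strand: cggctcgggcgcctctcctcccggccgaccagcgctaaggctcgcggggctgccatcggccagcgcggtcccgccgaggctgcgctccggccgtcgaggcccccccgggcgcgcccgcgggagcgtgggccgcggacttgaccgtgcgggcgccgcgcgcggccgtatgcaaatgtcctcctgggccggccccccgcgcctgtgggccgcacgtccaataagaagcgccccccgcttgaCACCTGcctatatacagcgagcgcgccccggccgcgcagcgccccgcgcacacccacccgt

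CACCTG was found once in each of the 3 windows, 214 bases before the start site of *Krt18*, 111 bases before that of *Krt8* and 11 bases before that of *Aldh1a2*. It is held by 20.2% of the 32851 promoter windows in the RefSeq table. In the matched windows not printed, *Krt7* held CACCTG once and *Upk3b* had none. TATAAA was present in *Krt8*, as overlapping matches on both strands, and in 13.6% of all windows. Among the other motifs searched on both strands, the 4-base Smad box GTCT had 2 matches in *Krt18*, 5 in *Krt8* and none in *Aldh1a2*, and 88.0% of all windows hold it. Neither the AP-1 motif TGANTCA (7.81% of windows) nor the GC box GGGCGG (35.7%) was found in these 3 windows. Positions are counted from the RefSeq start site. For *Krt18* and *Krt8* the GENCODE annotation extends further upstream, to 102028180 and 102004482, so their positions depend on the annotation used. Matches describe letters in the window and say nothing of binding.

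Libraries held 19056916 to 25371321 counts. Of the 15150 genes with counts high enough to test, 6 were among the keratin and mesothelial genes, while *Krt7* and *Krt8* were too low. CPM denotes counts relative to library size after scaling by the trimmed mean of M values (TMM). Smad7 itself was at 74.4 ± 2.94 CPM in unstimulated control and 29.4 ± 1.48 CPM in unstimulated Smad7-KO cells, and at 146 ± 4.24 and 76.8 ± 5.89 CPM after TGF-β1 (SD, n = 3), so reads remained after Cre. Fibroblast genes were abundant, with *Col1a1* at 1025 to 2350 CPM over all libraries, but *Lum*, a defining matrix gene of fibroblasts, had only 10 to 43 counts per library. The 7 macrophage markers summed to 12105 to 20174 CPM, above the 7240 to 11120 CPM of the 9 fibroblast markers. The 8 endothelial markers summed to 267 to 317 CPM in the control libraries and 45.2 to 57.9 CPM in the Smad7-KO libraries, and the 6 cardiomyocyte markers to 27.3 to 72.8 and 17.4 to 23.7 CPM. The 7 smooth muscle and pericyte markers summed to 959 to 1802 CPM in control and 747 to 1067 CPM in Smad7-KO libraries, and every marker on these lists had reads. In such bulk libraries fewer cells of a type and less RNA per cell cannot be told apart.

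*Upk3b*, *Upk1b* and *Aldh1a2* were expressed far above the keratins, and *Msln* was closer to *Krt18* and *Krt19*. On the FPKM scale, which corrects for gene length, the order in unstimulated control cells was *Upk3b* (67.2 ± 8.87, SD, n = 3), *Upk1b* (53.1 ± 3.63), *Aldh1a2* (17.9 ± 1.15), *Msln* (4.32 ± 0.372), *Krt18* (2.60 ± 0.585), *Krt19* (2.34 ± 1.49), *Krt7* (0.0267 ± 0.00501) and *Krt8* (0.0166 ± 0.0143). *Krt18* and *Krt19* overlapped, as did *Krt7* and *Krt8*, and the libraries of all other neighbors in this order were apart. *Msln* and *Krt19*, which are not neighbors in it, also overlapped (lowest *Msln* 4.028 FPKM, highest *Krt19* 4.029 FPKM). TGF-β1 control cells kept the order. In unstimulated Smad7-KO cells, by contrast, *Aldh1a2* (25.4 ± 0.727 FPKM) had a mean above that of *Upk1b* (23.4 ± 2.05 FPKM), although the libraries of both genes overlapped. In TGF-β1 Smad7-KO cells *Aldh1a2* (24.4 ± 0.520 FPKM) lay above *Upk1b* (21.3 ± 1.04 FPKM) without overlap, and *Krt18* (0.0410 ± 0.0488 FPKM) had the lowest mean of all 8 genes, overlapping *Krt8*.

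**Figure D1:**
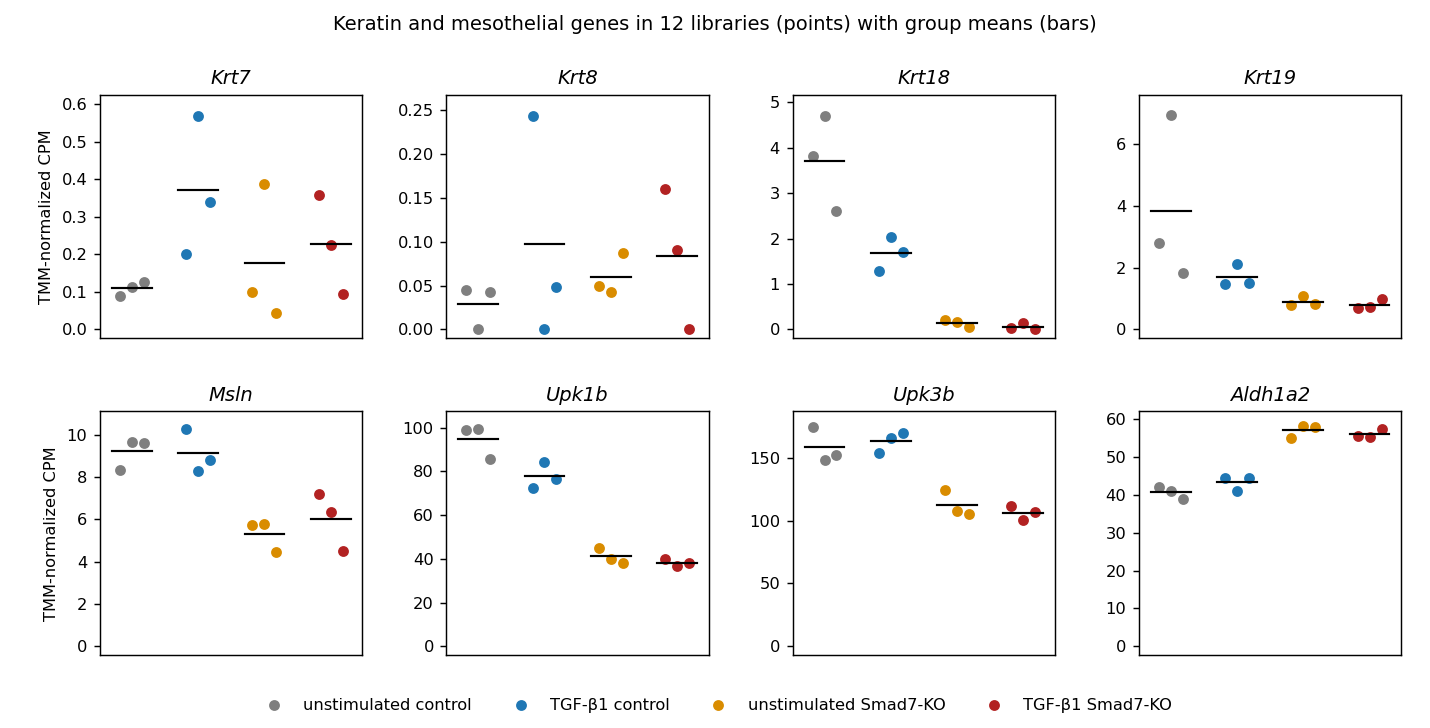
TMM-normalized CPM of the 8 keratin and mesothelial genes (linear axis from 0, a separate scale for each gene) in the 12 libraries, with points for libraries and bars for group means of 3. *Krt18* was between 1.29 and 4.69 CPM in the control libraries and at most 0.198 CPM in the Smad7-KO libraries, whereas *Aldh1a2* was above its control levels in all Smad7-KO libraries.

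*Krt18* had 85, 82 and 62 counts in the unstimulated control libraries and 4, 4 and 1 counts in the unstimulated Smad7-KO libraries. After TGF-β1 it had 32, 50 and 35 counts in control and 1, 3 and 0 counts in Smad7-KO libraries. Every Smad7-KO library was thus below every control library, and a single one had no read, which allows up to 3 counts in that library. Summed over libraries and scaled to their sizes, *Krt18* in Smad7-KO cells was at 3.75% of control without stimulation (95% interval 1.69% to 7.25%) and at 3.50% with TGF-β1 (0.937% to 9.19%). These intervals cover counting error only. The fitted log2 fold changes were -4.71 (standard error 0.52) and -4.71 (standard error 0.62). With each library left out in turn they stayed between -5.02 and -4.28 without stimulation and between -5.95 and -4.20 with TGF-β1, the first of these latter values coming from leaving out TGF-β1 Smad7-KO replicate 2. On log2(FPKM + 1), where a low gene has little room to fall, they were -1.70 and -1.08. No stretch of 100 bases in the *Krt18* transcript was shared with another annotated gene.

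Of the 8 endothelial markers, named after their values were seen, 5 were lower in Smad7-KO cells without overlap in both states, as *Krt18* was. Over all genes tested 19.2% were lower without overlap without stimulation and 23.0% with TGF-β1. These shares are for each state alone, and the share lower in both states was not computed. *Emcn*, an endothelial sialomucin, had a mean CPM in control cells 32.5 times that in Smad7-KO cells without stimulation and 29.2 times with TGF-β1, *Tie1*, an endothelial receptor kinase, 25.7 and 23.7 times, and *Pecam1*, an endothelial adhesion molecule, 20.2 and 18.8 times, against 26.9 and 28.6 times for *Krt18*. The *Krt18* folds rest on 9 and 4 counts in Smad7-KO cells. *Cdh5* (11.2 and 10.6 times) and *Egfl7* (8.89 and 6.58 times) were also lower in every Smad7-KO library than in the control libraries of the same stimulation. *Kdr* overlapped in both states, *Tek* overlapped without stimulation, and *Vwf* was higher in every Smad7-KO library. The part of endothelial cells in the *Krt18* result was not tested.

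The other keratins of the set did not share this loss evenly. *Krt19* had 62, 121 and 43 counts in unstimulated control and 16, 25 and 19 counts in unstimulated Smad7-KO libraries, and 36, 52 and 31 against 17, 16 and 21 counts after TGF-β1. The groups did not overlap in either state, and the log2 fold changes were -2.07 (standard error 0.45) and -1.09 (standard error 0.46). Unstimulated control replicate 2 was far above the other control libraries, and without it the first value was -1.34. *Krt7* had 1 to 9 counts in the unstimulated and 2 to 9 counts in the TGF-β1 Smad7-KO libraries, against 2 to 3 and 5 to 14 counts in the matching control libraries, and overlapped in both states. *Krt8*, the partner of *Krt18*, had 0 to 6 counts in any library, and at this depth no difference between its groups was detectable. A further limit for *Krt8* is that 17.1% of its 100-base stretches are shared with the pseudogenes *Krt8-ps* and *Gm36026*.

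The share of *Krt18* in the keratin pool follows from its loss, which was known when the set was chosen, and is a description. Of the FPKM summed over all 51 keratin genes, *Krt18* made up 35.8% ± 4.91 in control and 2.87% ± 1.64 in Smad7-KO libraries without stimulation. With TGF-β1 its share was 24.2% ± 1.82 in control and 1.49% ± 1.78 in Smad7-KO libraries (SD, n = 3). *Krt18* and *Krt19* together went from 4.94 ± 2.00 to 0.673 ± 0.127 FPKM without stimulation and from 2.30 ± 0.475 to 0.539 ± 0.0826 FPKM with TGF-β1. The type II genes *Krt7* and *Krt8* together were at 0.0433 ± 0.0159 and 0.0768 ± 0.0367 FPKM in control and Smad7-KO cells without stimulation and at 0.146 ± 0.0383 and 0.0999 FPKM with TGF-β1. In each group this was below the sum of *Krt18* and *Krt19*, but in TGF-β1–stimulated Smad7-KO cells its mean was above the 0.0410 FPKM of *Krt18* alone. The 47 keratin genes outside the set summed to 2.16 to 2.73 FPKM in unstimulated control and 2.46 to 2.76 FPKM in unstimulated Smad7-KO libraries, which overlap. With TGF-β1 they summed to 2.05 to 3.25 and 1.65 to 2.17 FPKM, which also overlap. Of these 47 genes, 30 had at most 3 counts in every library, 4 of them with no read at all, and only *Krt10*, a keratin of the upper epidermis, and *Krt80* were testable. Neither was called in any comparison, and 1 had an unadjusted p under 0.05, namely *Krt80* at a log2 fold change of 1.05 (standard error 0.46) in unstimulated Smad7-KO cells (edgeR, adjusted p = 0.0983). It was called without unstimulated control replicate 3.

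**Figure D2:**
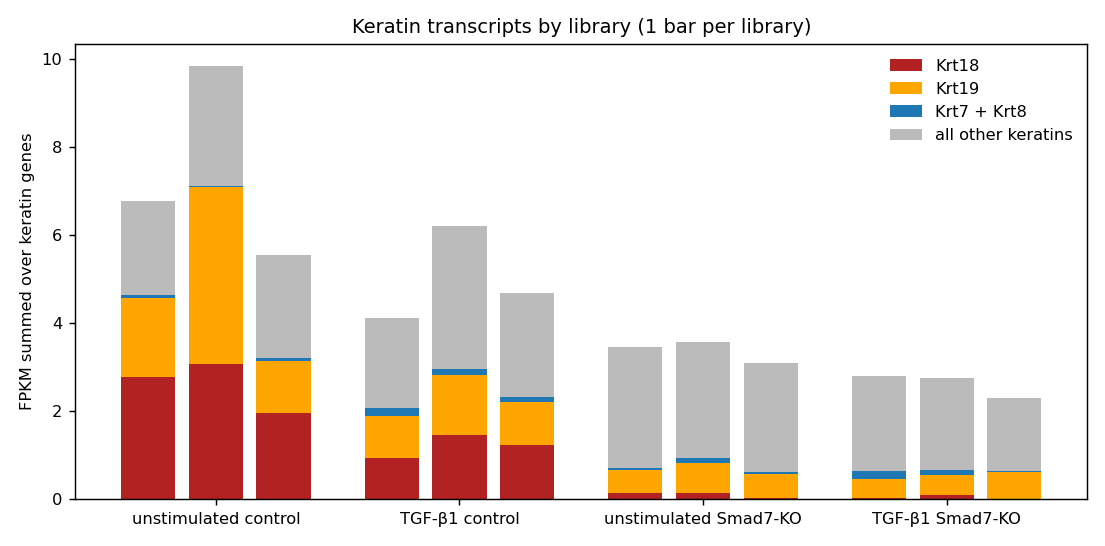
FPKM summed over keratin genes, with 1 bar for each library and colors for *Krt18*, *Krt19*, *Krt7* with *Krt8*, and the 47 other keratin genes. The *Krt18* segment makes up 31.2% to 41.0% of the bar in unstimulated control libraries and 0% to 4.13% in Smad7-KO libraries, while the segment of the other keratins lies between 1.65 and 3.25 FPKM throughout.

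Nothing is read from the distance between *Krt18* and its neighbors, since the set was chosen with the near loss of *Krt18* known. Of the 22 genes whose rows lie within 250 kb of it, 11 are keratins, itself and *Krt8* included, and the other 10 keratin rows had at most 6 counts in any library. The 9 testable genes that are no keratins all lie on the side away from *Krt8*. Their log2 fold changes in Smad7-KO cells ranged from -1.96 to 0.39 without stimulation and from -1.56 to 0.23 with TGF-β1. *Igfbp6*, which binds insulin-like growth factor 2, was called lower in both states (log2 fold change -1.96, adjusted p = 0.00148, and -1.56, adjusted p = 0.00612, the edgeR quasi-likelihood test, Benjamini-Hochberg adjusted), and *Soat2*, a cholesterol esterifying enzyme, was called lower with TGF-β1 at -1.24 (adjusted p = 0.00247). These 3 calls were kept with any 1 library left out. Over all genes tested 13.7% were called lower without stimulation and 7.23% with TGF-β1. *Eif4b*, the nearest testable gene, had log2 fold changes of 0.27 and 0.23 (adjusted p = 0.0598 and 0.143).

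**Figure D3:**
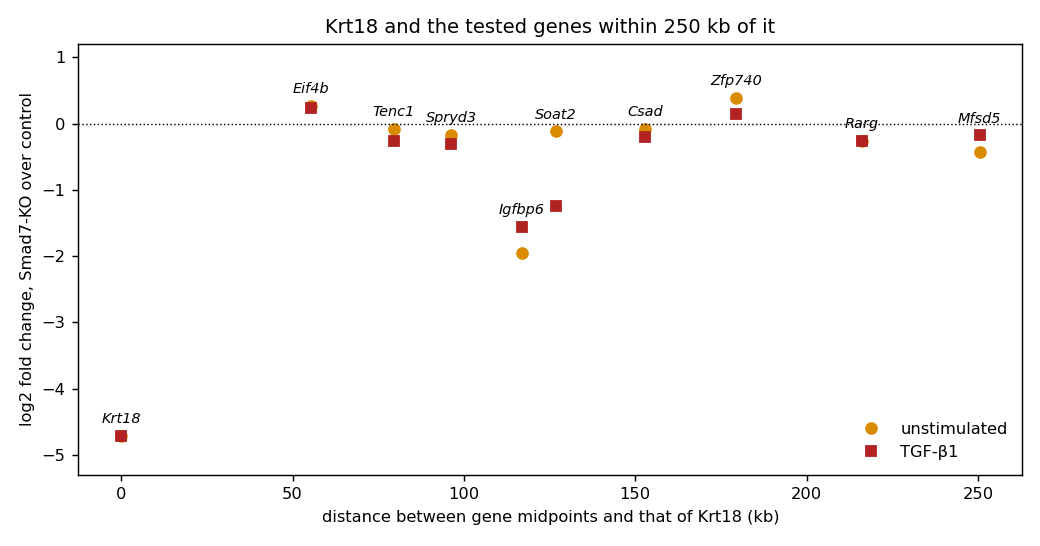
Log2 fold change of Smad7-KO over control cells for *Krt18* and the 9 testable genes within 250 kb, against the distance of gene midpoints from that of *Krt18* in kb, with circles for unstimulated and squares for TGF-β1–stimulated cells. *Krt18* lies at -4.71 in both states and its neighbors between -1.96 and 0.39.

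Among the mesothelial surface genes, *Upk1b* had 2211, 1735 and 2033 counts in unstimulated control and 909, 933 and 881 counts in unstimulated Smad7-KO libraries, or 94.7 ± 7.71 against 41.1 ± 3.53 CPM. After TGF-β1 it was at 77.6 ± 6.08 and 38.3 ± 1.70 CPM (SD, n = 3). The groups did not overlap, and the log2 fold changes were -1.20 (standard error 0.11) and -1.02 (standard error 0.11). *Upk3b* had 3891, 2602 and 3604 counts in unstimulated control and 2515, 2518 and 2425 counts in unstimulated Smad7-KO libraries. Control replicate 2 had a raw count close to those of the Smad7-KO libraries, but it was the shallowest library of all, and on the CPM scale the groups were apart at 158 ± 14.0 and 113 ± 10.5. With TGF-β1 *Upk3b* was at 163 ± 8.48 and 106 ± 5.38 CPM, and its log2 fold changes were -0.49 and -0.62 (standard errors 0.10). The uroplakin genes were not lower in proportion, and the FPKM ratio of *Upk1b* to *Upk3b* went from 0.795 ± 0.0771 to 0.484 ± 0.00637 without stimulation and from 0.630 ± 0.0380 to 0.477 ± 0.00499 with TGF-β1.

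*Msln* was lower by a smaller amount than *Upk1b*, with 186, 169 and 228 counts in unstimulated control and 116, 134 and 103 counts in unstimulated Smad7-KO libraries. After TGF-β1 it had 254, 204 and 181 against 180, 140 and 95 counts. The groups did not overlap on the CPM scale, at 9.20 ± 0.751 against 5.32 ± 0.740 CPM and 9.12 ± 1.03 against 6.00 ± 1.38 CPM. The log2 fold changes were -0.79 (standard error 0.19) and -0.60 (standard error 0.18).

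*Aldh1a2* was the exception. It had 938, 719 and 924 counts in unstimulated control and 1111, 1354 and 1335 counts in unstimulated Smad7-KO libraries, and was at 40.7 ± 1.57 and 57.0 ± 1.71 CPM. With TGF-β1 it was at 43.4 ± 1.94 and 56.1 ± 1.16 CPM (SD, n = 3). All Smad7-KO libraries were above all control libraries, and the log2 fold changes were 0.49 and 0.37 (standard errors 0.08). Thus in each state 5 of the 6 testable genes had all Smad7-KO libraries below the control libraries and 1 had them above. Over all genes tested, libraries did not overlap in 19.2% with Smad7-KO lower and in 22.1% with Smad7-KO higher without stimulation, and in 23.0% and 21.9% with TGF-β1. Since the comparison was known when the genes were chosen, nothing is read from these counts.

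Gene length moved with the comparison as well. Over the shortest of 3 equal classes of gene length, the median log2 fold change of Smad7-KO over control was -0.39 without stimulation and -0.20 with TGF-β1, and *Krt18*, *Krt19*, *Msln* and *Upk1b* belong to that class, whereas *Upk3b* and *Aldh1a2* belong to the middle one, with medians of -0.01 and -0.02. After the trend on gene length was removed from each library, the log2 fold changes without stimulation were -4.29 for *Krt18*, -1.62 for *Krt19*, -0.91 for *Upk1b*, -0.60 for *Msln*, -0.35 for *Upk3b* and 0.65 for *Aldh1a2*. With TGF-β1 they were -4.48, -0.88, -0.84, -0.47, -0.52 and 0.48. The part of gene length in these differences was not tested.

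TGF-β1 was tested next. None of the 6 testable genes was called at an adjusted p of 0.05 in control cells, where 5.04% of all genes tested were called higher and 3.33% lower, and 3 of the 6 had an unadjusted p under 0.05, as did 3073 of all 15150 genes. In Smad7-KO cells 5.33% of all genes were called higher and 4.9% lower. *Krt18* passed the count filter only through the control libraries, where it is high, and its counts of 4, 4 and 1 against 1, 3 and 0 in Smad7-KO libraries leave no room for a call. None of the other 5 genes was called there, and 0 of them had an unadjusted p under 0.05, against 3064 of all genes. *Krt18* was at 3.70 ± 1.04 CPM without and 1.68 ± 0.370 CPM with TGF-β1 in control cells, and the libraries did not overlap. Its log2 fold change of -1.14 (standard error 0.37, 95% interval -1.96 to -0.31) had an adjusted p of 0.0944 in the edgeR quasi-likelihood test, Benjamini-Hochberg adjusted. DESeq2 called it (adjusted p = 0.0149), limma on log2(FPKM + 1) did so at a log2 fold change of -0.70 (adjusted p = 0.00705), and so did edgeR without unstimulated control replicate 3 (-1.33, adjusted p = 0.0287). Over all 19 alternatives the adjusted p ranged from 0.00705 to 0.310. In Smad7-KO cells the value was -1.14 with a 95% interval of -3.13 to 0.85, resting on 9 and 4 counts in all, and is given as a description.

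*Krt19* had a log2 fold change of -1.16 with TGF-β1 in control cells (standard error 0.42, adjusted p = 0.133 in edgeR), but its libraries overlapped. Without unstimulated control replicate 2 the change was -0.43 (adjusted p = 0.440), whereas without replicate 3 it was -1.50 and called (adjusted p = 0.0143). *Upk1b* was at 94.7 ± 7.71 CPM without and 77.6 ± 6.08 CPM with TGF-β1 in control cells, with no overlap. Its change of -0.29 (standard error 0.10) had an adjusted p of 0.136 in edgeR, of 0.0497 in DESeq2 and of 0.0341 in edgeR without unstimulated control replicate 3, and ranged from 0.0341 to 0.463 over the alternatives. *Upk3b*, *Msln* and *Aldh1a2* had log2 fold changes of 0.04 (95% interval -0.18 to 0.27), -0.01 (-0.41 to 0.39) and 0.09 (-0.09 to 0.27) in control cells. In Smad7-KO cells the intervals of these genes and of *Upk1b* all included 0 and reached no further than -0.33 and 0.59. *Krt7* was higher in every TGF-β1 control library (5, 14 and 7 counts) than in the unstimulated ones (2, 2 and 3 counts), but was too low to be tested. The median log2 fold change of the shortest genes was -0.21 with TGF-β1 in control cells and 0.01 in Smad7-KO cells.

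The difference between the TGF-β1 effects in Smad7-KO and control cells was called for 0.0198% of all genes tested and for none of the 5 genes with enough counts in both genotypes. On the log2 scale it was 0.98 (95% interval -0.43 to 2.39) for *Krt19* and 0.18 (-0.14 to 0.51) for *Upk1b*. For *Krt18*, which rests on 9 and 4 counts in Smad7-KO cells, the 95% interval ran from -2.21 to 2.20. On log2(FPKM + 1) limma gave a difference of 0.62 (standard error 0.19, adjusted p = 0.932). A gene as low as *Krt18* in Smad7-KO cells has little room to fall on that scale, where its TGF-β1 effect was -0.08, against -0.70 in control cells. None of the 5 other genes had an unadjusted p under 0.05 for the difference, and DESeq2 and limma called none of them either. The interval for *Krt18* does not show that both genotypes responded alike.

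**Figure D4:**
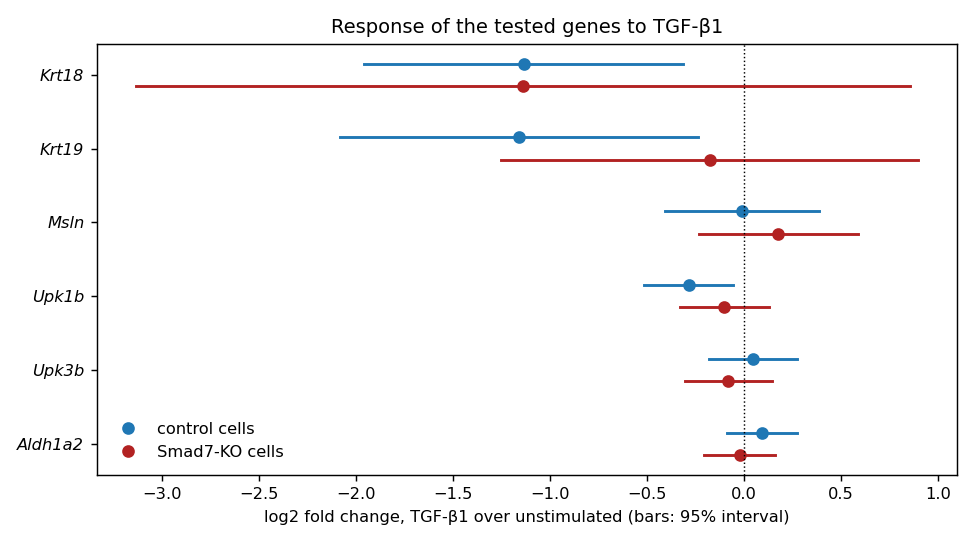
Log2 fold change of TGF-β1–stimulated over unstimulated cells for the 6 testable genes, with points for estimates and lines for 95% intervals from edgeR, in control and Smad7-KO cells. The intervals for *Krt18*, *Krt19* and *Upk1b* in control cells lie below 0 before adjustment for the number of genes tested, and the widest interval is that of *Krt18* in Smad7-KO cells.

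Among 12 other mesothelial and epicardial genes, 9 of which were testable, 3 fell in unstimulated Smad7-KO cells and none rose, where 13.7% of all genes tested fell and 12.1% rose. This list and those that follow were drawn up with earlier results of these data known. Nothing is therefore read from how many of their genes were called in Smad7-KO against control cells. *Gpm6a*, a membrane glycoprotein abundant in mesothelium, went from 224 ± 23.8 to 80.1 ± 5.11 CPM (log2 fold change -1.48, adjusted p = 1.74e-05 in edgeR), *Rspo1*, a Wnt agonist, changed by -1.90 (adjusted p = 0.00343) and *Nkain4*, which interacts with the sodium pump, by -1.53 (adjusted p = 0.00373). With TGF-β1 2 fell and none rose, against 7.23% and 5.72% of all genes, namely *Gpm6a* (-1.40, adjusted p = 3.39e-05) and *Nkain4* (-1.13, adjusted p = 0.0210). The latter call was lost without any 1 library of that comparison other than TGF-β1 control replicate 1, which left 1 gene called. The epicardial transcription factors did not pass the test, with *Wt1* at -0.60 and -1.06 (adjusted p = 0.244 and 0.119) and *Tbx18* at -0.12 and 0.00 (adjusted p = 0.451 and 0.998). The mesothelial genes *Lrrn4* (0.36 and 0.21) and *Bnc1* (-0.18 and -0.53) did not pass either, and *Muc16* had at most 3 counts in any library. The median over the 9 genes was -0.18 without and -0.53 with TGF-β1, beside -0.02 in both states for all genes tested.

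*Tbx18* fell with TGF-β1 in control cells (log2 fold change -0.56, adjusted p = 0.0111 in edgeR) and in Smad7-KO cells (-0.44, adjusted p = 0.0348), as the single gene of this list to do so. Of all genes tested 3.33% were called lower in control cells and 4.9% in Smad7-KO cells. The first call was lost without TGF-β1 control replicate 3 and with only the compared libraries. The second was lost without TGF-β1 control replicate 3 or any 1 Smad7-KO library, with no filter and with the replicate block. With only the compared libraries 4 genes of the list were called in Smad7-KO cells. Leaving out unstimulated control replicate 3 raised the number called in control cells to 2.

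Of the other uroplakins, only *Upk1a* was testable, at 0.546 ± 0.271 CPM in unstimulated control cells, and it was not called (unadjusted p under 0.05 in 1 comparison, Smad7-KO against control with TGF-β1). Of 12 genes of simple epithelia 3 were testable and none was called by edgeR, with 1 at an unadjusted p under 0.05 in each Smad7-KO comparison. *Cdh1*, the epithelial cadherin, had 9 to 26 counts in unstimulated control and 2 to 8 counts in unstimulated Smad7-KO libraries (log2 fold change -2.10, adjusted p = 0.0783 in edgeR), *Esrp2*, an epithelial splicing factor, was at 0.57 (adjusted p = 0.317) and *Ovol1*, a repressor of mesenchymal genes, at -0.51 (adjusted p = 0.176). In unstimulated cells DESeq2 called 1 gene of the list, as did edgeR with no filter, with the length trend removed and in fits with a library left out. The latter were the fits without unstimulated control replicate 2 or 3, unstimulated Smad7-KO replicate 1, or any 1 TGF-β1 library (2 called without TGF-β1 Smad7-KO replicate 1).

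Genes of the junctions and plakins that anchor keratin filaments fell in part. Of 12 testable genes, 5 fell in unstimulated and 3 in TGF-β1–stimulated Smad7-KO cells, and none rose, where 13.7% and 7.23% of all genes fell and 12.1% and 5.72% rose. With only the compared libraries or with limma 2 of the 12 were called without stimulation. *Pkp2*, a desmosomal plakophilin, went from 8.30 ± 0.281 to 2.38 ± 0.299 CPM (log2 fold change -1.80, adjusted p = 0.000681 in edgeR) and changed by -1.68 with TGF-β1 (adjusted p = 0.00112). *Jup*, which encodes plakoglobin, changed by -0.61 and -0.55 (adjusted p = 0.00248 and 0.00509) and *Pkp1* by -0.97 and -1.43 (adjusted p = 0.0216 and 0.00241). The number of falls without stimulation depended on single libraries, with 8 genes called without unstimulated control replicate 3 and 2, 3 and 2 without unstimulated Smad7-KO replicates 1, 2 and 3, and *Pkp1* was lost without Smad7-KO replicate 1 or 3.

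With TGF-β1, *Pkp1* rose in control cells (log2 fold change 1.48, adjusted p = 0.00158 in edgeR) and in Smad7-KO cells (1.02, adjusted p = 0.0239), the latter call being lost without unstimulated Smad7-KO replicate 1 or 3 or any 1 TGF-β1 Smad7-KO library. In control cells it was the 1 gene of the 12 called by edgeR, where 5.04% of all genes rose and 3.33% fell, while DESeq2 called 4, limma 0 and edgeR with the length trend removed 6. Leaving out unstimulated control replicate 2 or 3 gave 3 calls, and leaving out TGF-β1 control replicate 2 gave 2. In Smad7-KO cells 3 rose and 2 fell, against 5.33% and 4.9% of all genes, among them *Dsp*, which encodes desmoplakin (1.44, adjusted p = 0.00523), *Pkp4* (-0.58, adjusted p = 0.00324) and *Ppl*, which encodes periplakin (-1.09, adjusted p = 0.0184). Without any 1 Smad7-KO library *Ppl* was lost and 2 or 3 genes of the 12 were called.

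Among 10 testable genes of other intermediate filaments, 4 fell and none rose in unstimulated Smad7-KO cells, where 13.7% of all genes fell and 12.1% rose, and with only the compared libraries 0 of the 10 were called. *Vim*, the main filament gene of mesenchymal cells, changed by -0.75 (adjusted p = 0.0102 in edgeR), *Synm* by -1.23 (adjusted p = 0.00609) and the lamin gene *Lmna* by -0.55 (adjusted p = 0.00597). *Vim* went from 3600 ± 904 to 2136 ± 42.8 CPM. With TGF-β1, where 7.23% of all genes fell, *Lmna* (-0.49, adjusted p = 0.0138) and *Vim* (-0.55, adjusted p = 0.0495) fell. The *Vim* call was lost in each fit without 1 library except those without unstimulated control replicate 2 or 3, and the *Lmna* call without TGF-β1 control replicate 2 or TGF-β1 Smad7-KO replicate 1 or 2, so that 0 genes were called in these fits, against 4 without unstimulated control replicate 2. TGF-β1 raised *Lmnb1* (0.77, adjusted p = 0.00286) and the progenitor filament gene *Nes* (0.49, adjusted p = 0.0359) in control cells and *Nes* (0.66, adjusted p = 0.00616) and *Lmna* (0.38, adjusted p = 0.0499) in Smad7-KO cells. Of all genes tested 5.04% were called higher in control cells and 5.33% in Smad7-KO cells. With only the compared libraries the number called was 0 in control cells and 4 in Smad7-KO cells. *Nes* in control cells lost its call in 6 of 12 fits, without unstimulated control replicate 1, any TGF-β1 control library or replicate 1 of either Smad7-KO group, and *Lmna* in Smad7-KO cells in 10 of 12, all but those without unstimulated control replicate 2 or 3. Without unstimulated control replicate 2, 4 of the 10 genes were called for TGF-β1 in Smad7-KO cells.

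Around *Aldh1a2*, 13 genes of retinoic acid metabolism and signaling were testable. Without stimulation 2 rose and 4 fell in Smad7-KO cells, and with TGF-β1 2 rose and 3 fell. Of all genes 12.1% rose and 13.7% fell without stimulation and 5.72% and 7.23% with TGF-β1. With only the compared libraries the 6 calls without stimulation became 1. *Dhrs3*, which reduces retinaldehyde back to retinol, rose in both states (log2 fold change 0.62, adjusted p = 0.00640, and 0.83, adjusted p = 0.00175, edgeR). *Aldh1a3*, which like *Aldh1a2* makes retinoic acid, rose without stimulation (0.53, adjusted p = 0.0120) and with TGF-β1 (0.76, adjusted p = 0.00212), the first call being lost without unstimulated Smad7-KO replicate 1. *Aldh1a1*, which encodes the remaining enzyme of this kind, was at 718 ± 22.4 FPKM in unstimulated control cells, against 2.54 ± 0.147 FPKM for *Aldh1a3*, and fell in both states (-0.69, adjusted p = 0.000722, and -0.67, adjusted p = 0.00110). *Cyp26b1*, which degrades retinoic acid, fell without stimulation (-0.72, adjusted p = 0.0245) and with TGF-β1 (-1.39, adjusted p = 0.00138), the first call being lost without unstimulated control replicate 1 or any 1 unstimulated Smad7-KO library. The 3 retinaldehyde dehydrogenase genes therefore did not move one way in Smad7-KO cells. Without unstimulated Smad7-KO replicates 1, 2 and 3, 2, 3 and 3 genes were called in unstimulated cells, and 8 were called in TGF-β1–stimulated cells without unstimulated control replicate 2.

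*Aldh1a3* rose with TGF-β1 in control cells (log2 fold change 0.88, adjusted p = 0.000708 in edgeR) and in Smad7-KO cells (1.10, adjusted p = 9.51e-05), and *Aldh1a2* did not pass the test in either, a difference between genes that was not tested. *Rarg*, a retinoic acid receptor gene that also lies near *Krt18*, fell by 0.51 on the log2 scale in both (adjusted p = 0.00911 and 0.00820), and *Cyp26b1* changed by -1.31 in Smad7-KO cells (adjusted p = 0.00121). The *Rarg* calls were lost without TGF-β1 control replicate 1 and without TGF-β1 Smad7-KO replicate 1. In control cells the 2 genes called became 4 or 5 without unstimulated control replicate 2 or 3 and 1 without TGF-β1 control replicate 1, and in Smad7-KO cells the 4 called became 2 without TGF-β1 Smad7-KO replicate 1. With only the compared libraries 1 was called in control cells and 7 in Smad7-KO cells. Over all genes tested 5.04% were called higher and 3.33% lower in control cells, and 5.33% and 4.9% in Smad7-KO cells.

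**Figure D5:**
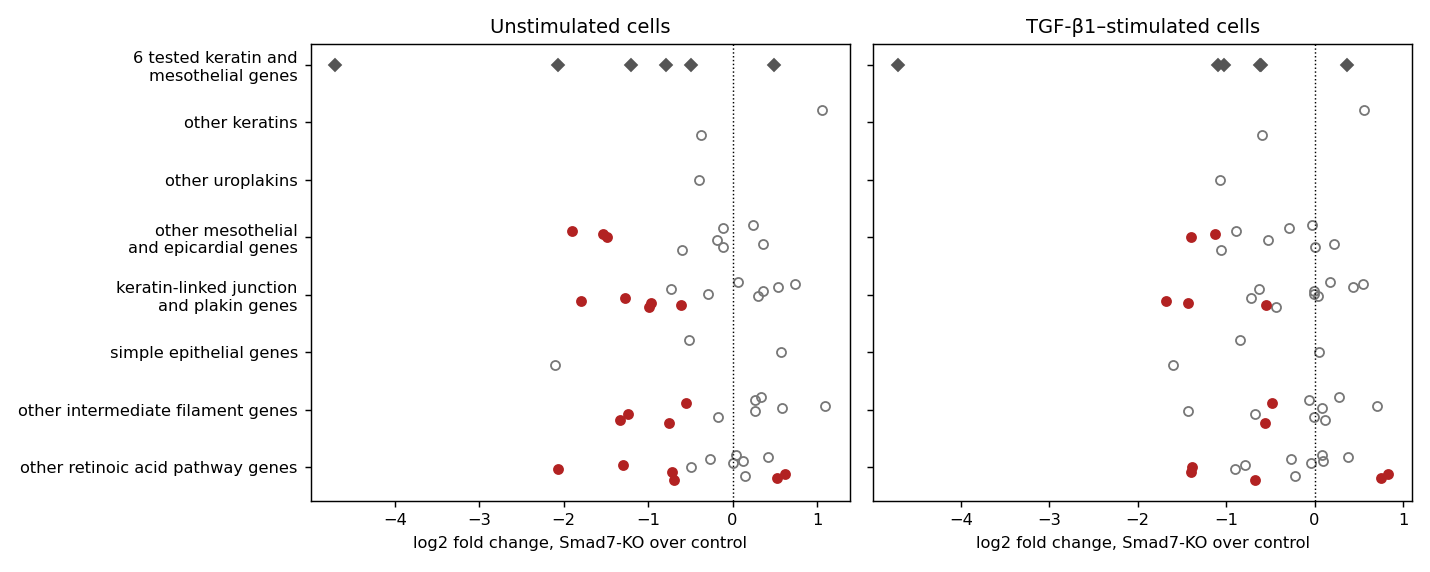
Log2 fold change of Smad7-KO over control cells for the 6 testable keratin and mesothelial genes (diamonds, not tested) and for the testable genes of 7 related lists (circles, filled in red at an adjusted p of 0.05 or less), without stimulation on the left and with TGF-β1 on the right. *Krt18* at -4.71 lies beyond every gene of the lists, and filled circles to the right of 0 are found in the retinoic acid list alone.

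By root-mean-square difference of log2 CPM profiles centered on their own means over the 12 libraries, the genes most like *Krt18* among 12121 were *Sept4* (0.334), *S100b* (0.335) and *Clu* (0.338). *Clu* was at 92.6 ± 20.7, 79.9 ± 7.07, 13.3 ± 0.740 and 13.3 ± 0.180 CPM in the order control, control with TGF-β1, Smad7-KO and Smad7-KO with TGF-β1. Profiles were taken on log2(CPM + 0.5), and the 0.5 compresses the range of *Krt18*, at 0 to 4.69 CPM, more than that of abundant genes such as *Clu*. The order with another offset was not computed. Nearest to *Krt19* was *Dhrs13* (0.132), to *Upk1b* *Cd34* (0.0767), to *Upk3b* *Qsox1* (0.0770), to *Msln* *Stk39* (0.141) and to *Aldh1a2* *Suv420h2* (0.0597). Within the set, *Upk3b* and *Msln* were closest to each other (0.220), and *Krt18* and *Aldh1a2* were farthest apart (1.44). These distances describe the libraries and were not tested.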

How the data were processed

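The genes and lists were chosen with earlier results of these data known. The authors deposited whole-number read counts without normalization and FPKM values, which equal the count divided by gene length and by the library's total. Submitters' notes name CASAVA, TopHat2 2.0, HTSeq 0.6.1, Cufflinks 2.1.1, mm10 and GRCm38.p6 without roles, and strand use is not given in the sources used here, so genes overlapping on opposite strands cannot be told apart. Counts of all 12 libraries were fitted together in edgeR 4.0.16 (R 4.3.3; filterByExpr with a minimum count of 10, TMM, robust quasi-likelihood test), and p values were Benjamini-Hochberg adjusted over all 15150 genes tested and called at 0.05. The code was tested on simulated counts. Alternatives were DESeq2 1.42.0 (the tool of the study), its size factors in edgeR, no filter, only the compared libraries, limma 3.58.1 on log2(FPKM + 1), a replicate block, subtraction of a loess trend (span 0.3) on gene length, and leaving out each library. Profiles used log2(CPM + 0.5) of genes with a mean log2 CPM of 1 or more. In each list and comparison up to 3 called genes with the smallest adjusted p were named, or else the 2 most abundant, and so were genes within 250 kb of *Krt18*. *Wt1*, *Lrrn4*, *Bnc1*, *Muc16*, *Cdh1* and the endothelial markers were named after their values were seen. No row was found for *Eppk1* and *Adgre1*. The promoters of *Krt19*, *Msln* and *Upk1b* were not used here.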

Additional observations from a re-analysis of the deposited data

How the results depend on the processing

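Directions of the 6 testable genes in Smad7-KO against control cells held under all 19 alternatives in each state. The genes were chosen by this comparison and the alternatives refit the same libraries, so nothing is read from this. In control cells the number of these genes called for TGF-β1, 0 in edgeR, was 2 with DESeq2 and 1 with limma, and 0 to 3 with a library left out. In Smad7-KO cells and for the difference between the TGF-β1 effects it was 0 under every alternative that could be fitted. Over all genes, the 1268 called for TGF-β1 in control cells became 391 with only the libraries of the comparison, 2273 with the length trend removed and 825 to 3449 with a library left out. In Smad7-KO cells 1550 became 3792, 2625 and 985 to 2535. The 3 called for the difference became 16 with DESeq2, 13 with the length trend removed, 0 with limma and 0 to 6 with a library left out (392 genes had an unadjusted p under 0.05 in edgeR and 323 in limma). The 3907 called between Smad7-KO and control without stimulation became 660 with only those libraries and 1535 to 7979 with a library left out, the highest without unstimulated control replicate 3. With TGF-β1 1962 became 2975 with DESeq2, 4453 with only those libraries, 3519 with the length trend removed and 883 to 4465 with a library left out, and the share called higher was 44.1% in edgeR and 33.0% in limma. The cause of these shifts was not tested. Same-numbered libraries did not deviate together: correlations over 18 pairs ran from -0.357 to 0.524, 1 was over 0.1 and 0 libraries matched their own number best, so the numbers were not taken as pairs. With the replicate block 1107, 1323, 0, 3222 and 1625 genes were called for TGF-β1 in control cells, TGF-β1 in Smad7-KO cells, the difference (340 at an unadjusted p under 0.05), and Smad7-KO without and with TGF-β1, and none of the 6 genes was called. The low counts of *Krt7*, *Krt8* and, in Smad7-KO cells, *Krt18* limit what could be detected.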
